A study of Mus musculus with 36 samples.

Results

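Oxidative phosphorylation is carried out by 5 protein complexes of the inner mitochondrial membrane. Complex I (NADH dehydrogenase) and complex II (succinate dehydrogenase) pass electrons to ubiquinone, complex III (cytochrome bc1 complex) passes them to cytochrome c, and complex IV (cytochrome c oxidase) passes them to oxygen. Complex V (ATP synthase) uses the proton gradient that the chain builds to make ATP. Apart from complex II, each complex combines subunits encoded in the nucleus with subunits encoded in mitochondrial DNA, and in the epidermis the pathway works beside glycolysis.

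The nuclear-encoded subunits were followed in tail epidermal cells over a first and a second wound. Members were chosen by gene name, as the Nduf genes of the classes a, b, c, s and v, the Uqcr genes, the Cox4 to Cox8 genes, the Atp5 genes and Sdha to Sdhd, with annotated pseudogenes left out. The rule found 77 of 20181 genes in the Lrig1 table and 79 of 22587 genes in the Lgr5 table, and 77 of these were in both. Cox4i2 and Cox7a1, a form of COX4 known from lung and a muscle form of COX7A, were in the Lgr5 table alone. The rule also takes in 3 genes whose place in a complex needs a word. Ndufa4 was named as a complex I subunit and is now placed with complex IV, Cox7a2l encodes a factor that joins complexes III and IV into supercomplexes, and Atp5s encodes a coupling factor of complex V.

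Both mouse lines carried Rosa26-fl/STOP/fl-tdTomato, combined with either Lrig1-EGFP-ires-CreERT2 or Lgr5-EGFP-ires-CreERT2. Lrig1 marks the junctional zone of the hair follicle (HF) and Lgr5 marks the HF bulge, and the descendants of cells that recombined are called Lrig1 GL and Lgr5 GL. All mice received topical hydroxytamoxifen on the tail, the unwounded controls included. At 7 to 9 weeks of age, 1 week after labelling, the first full-thickness wound was made, and the unwounded state is 0W. Cells were taken 1, 2, 4 and 8 weeks after this wound (1W, 2W, 4W and 8W), and 9W is 1 week after a second wound made at 8W over the first. Each library held 150 sorted tdTomato+ cells from skin that included the wound bed and the HFs away from it, so a library mixes cells that had entered the wound with cells that had not. There were 3 libraries at each of 6 time points in each population, or 36 in all. The libraries of a group came from separate mice, and p-values describe the spread between them.

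Depth was between 765252 and 3365666 counts per Lrig1 GL library, and 1297798 and 6960537 counts per Lgr5 GL library. The members received 9557 to 46368 counts per library in the first population and 8497 to 75358 in the second. The summed level of 7 keratinocyte markers, Krt5 and Krt14 among them, ran from 20400 to 30900 CPM in Lrig1 GL libraries (CPM, counts scaled to a common library size of 1e6). In Lgr5 GL libraries this sum ran from 25400 to 34500 CPM at 0W, from 12600 to 21600 CPM at 2W and from 10800 to 14100 CPM at 4W, so neither of these overlapped with 0W. Fibroblast markers summed to at most 89.6 CPM in Lrig1 GL libraries and to 54.9 to 378 CPM in Lgr5 GL libraries, and 3 male germ cell markers had no counts. In cells sorted in bulk, fewer cells of a type and less RNA per cell cannot be told apart.

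The filter on low counts was passed by 76 of 77 members in Lrig1 GL cells and, among those of the Lgr5 table, by 78 of 79. Cox6b2, a testis form of COX6B, did not pass in Lrig1 GL cells, with 0 to 12 counts per library, and Cox4i2 did not pass in Lgr5 GL cells, with 0 to 18 counts. The mean level of the members that passed ran from 13.2 to 1253 CPM with a median of 144 CPM in Lrig1 GL cells. In Lgr5 GL cells it ran from 0.874 to 862 CPM with a median of 95.5 CPM. CPM of the 2 populations are not on one scale, since the RNA Gm12415 took a large part of the counts in Lgr5 GL libraries only. By mean CPM per kilobase of exon, the same 3 genes stood at the top in both populations. These were, with the Lrig1 GL value first, Cox6a1 (591 and 368) and Cox4i1 (523 and 306), both subunits of complex IV, and Uqcr11 (424 and 318), a small subunit of complex III. The forms of COX4, COX6A and COX7A that most tissues use, Cox4i1, Cox6a1 and Cox7a2, were present in every library. The muscle form Cox7a1 was at 0 in 3 of 3 Lgr5 GL libraries at 0W and reached at most 3.59 CPM in a 1W library, so no fold change is given for it.

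Promoters of the members carry short motifs of factors known for nuclear genes of mitochondria, and 300-base windows from RefSeq (GRCm38.p6, 250 bases before to 50 after a start) were available for 65 of 79 members. The core recognised by NRF1, a palindrome-like motif of 10 bases of which the sixth is free, was found on either strand in 17 of 65 members (26.2%) and in 5.19% of 27025 genes with a window. AAGATGGC, a YY1 motif, was found the same way in 10 members (15.4%, against 3.19% of all genes). CCGGAAGT, bound by GABPA, was found in 4 members (6.15%, against 4.31%), and TCAAGGTCA, bound by ESRRA, in 2 (3.08%, against 0.466%). The NRF1 motif was in 6 of 15 windows of complex V and in 1 of 11 of complex IV. A match of letters is a description of the window and not a measured binding site. The sites of 6 members whose values are described further on follow, each as 30 bases in the direction of the gene, with the motif in capitals. The first 4 carry the NRF1 motif, and the fifth and sixth carry those of GABPA and ESRRA, the last read on the opposite strand.
Cox6a1 (chr5:115349101-115349130, minus strand): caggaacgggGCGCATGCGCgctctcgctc
Ndufa11 (chr17:56717692-56717721, plus strand): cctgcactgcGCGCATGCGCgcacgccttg
Atp5k (chr5:108434430-108434459, minus strand): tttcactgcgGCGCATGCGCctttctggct
Sdha (chr13:74350276-74350305, minus strand): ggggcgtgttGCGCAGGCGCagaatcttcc
Uqcr11 (chr10:80406869-80406898, minus strand): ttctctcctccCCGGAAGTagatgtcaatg
Atp5g3 (chr2:73911360-73911389, minus strand): ttgttacaaagTGACCTTGAgcgtcttccc

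The summed level of all members showed 2 departures from 0W, at 8W in Lrig1 GL cells and at 1W in Lgr5 GL cells. In Lrig1 GL cells the sum was 18303, 11784 and 15826 CPM at 0W and 11724, 9303 and 10309 CPM at 8W. All 3 libraries at 8W lay below all 3 at 0W, although the highest at 8W came close to the lowest at 0W. At 4W the sum was 16330, 17560 and 15987 CPM, so the 8W libraries lay further below 4W than below 0W. In Lgr5 GL cells the sum was 7139, 7334 and 9811 CPM at 0W and 14748, 12320 and 13620 CPM at 1W. Every 1W library of Lgr5 GL cells lay above every other Lgr5 GL library, whose highest sum was 10700 CPM, in a library of 8W. At 9W the Lgr5 GL sum was 9506, 7226 and 7578 CPM, which overlapped with 0W.

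**Figure D1:**
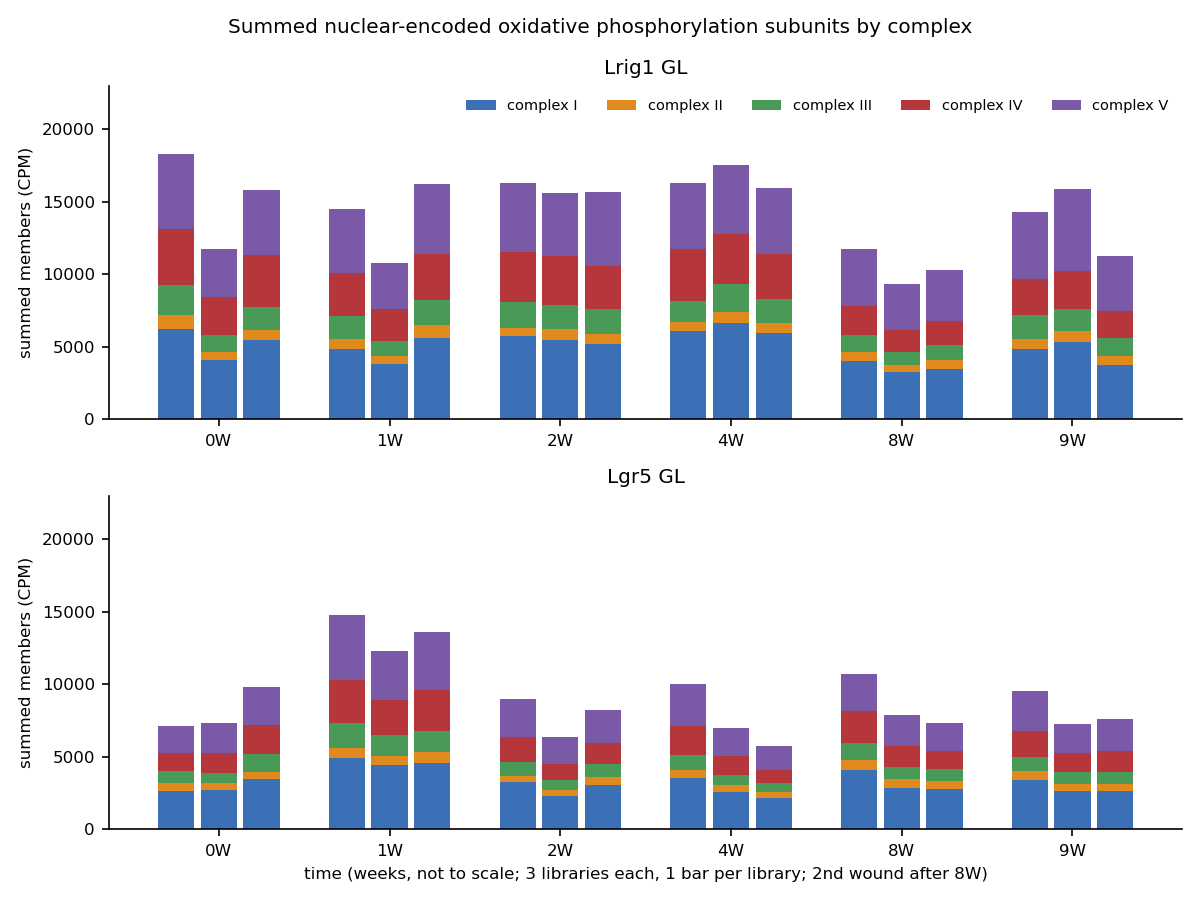
Summed level of the members of each complex (CPM) in every library, by time point, for Lrig1 GL and Lgr5 GL cells. Each stacked bar is 1 library, coloured by complex, with 3 per time point. By their means, all 5 complexes are lowest at 8W in Lrig1 GL cells and highest at 1W in Lgr5 GL cells.

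In Lrig1 GL cells at 8W, subunits of complexes I, III, IV and V were lower than at 0W, and complex IV had the lowest median. edgeR's quasi-likelihood test, with p adjusted over 14306 genes, called 18 of 76 members lower and 0 higher, where 1.32% of all genes were called lower and 1.54% higher. The median log2 fold change of the members was -0.80, against -0.01 over all genes, and 17 of 76 lay above 0, as did 49.5% of all genes. At an unadjusted p under 0.05, 36 members were lower (10.7% of all genes) and 1 was higher (12.3%). Complex IV had 6 of 12 members called and a median of -1.28, complex III 2 of 8 and -1.04, complex I 7 of 35 and -0.72, and complex V 3 of 17 and -0.69. Complex II had 0 of 4 called, with 2 at an unadjusted p under 0.05, and a median of -0.26. The count of 18 was 29 with DESeq2, 3 after a trend on GC content was removed, and 1, 5, 0, 1 and 1 when 0W replicate 1, 0W replicate 3 or 8W replicate a, b or c was left out, while the median stayed between -0.89 and -0.66 over all libraries left out in turn. With surrogate variables, a kind of processing that the study also used, 0 members were called and the median lay nearer 0, as given further on.

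Complex IV held the member with the smallest p. Cox7a2l, the supercomplex factor (chr17:83501918-83517330, minus strand, GRCm38), was at 200, 204 and 119 CPM at 0W and at 30.6, 47.0 and 32.7 CPM at 8W. The 8W libraries lay below those of every other time point. Its log2 fold change was -2.25 (SE 0.366, adjusted p = 0.013, edgeR). Cox4i1, a large structural subunit that touches the catalytic core (chr8:120668222-120674207, plus strand), was at 1305, 862 and 1069 CPM at 0W. It was at 493, 403 and 403 CPM at 8W, again below the libraries of all other time points except those of 9W, of which 2 were at 464 and 472 CPM. This is a log2 fold change of -1.32 (SE 0.234, adjusted p = 0.016, edgeR).

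The other 4 called members of complex IV were Cox5a, Cox5b, Cox6b1 and Cox8a, with log2 fold changes from -1.76 (Cox5a) to -1.39 (Cox5b). Cox5a, a subunit on the matrix side, was at 238, 73.5 and 174 CPM at 0W and at 49.5, 40.9 and 52.0 CPM at 8W. The 0W libraries of Cox5a differed among themselves by a factor of more than 3, and still none overlapped with 8W (adjusted p = 0.0238, edgeR). Subunits of the same complex did not all move alike. Cox6a1 was at 294, 291 and 544 CPM at 0W and at 238, 220 and 333 CPM at 8W, with overlapping groups (log2 fold change -0.51, SE 0.335, adjusted p = 0.372, edgeR). Cox7a2 had a log2 fold change of -0.57 (adjusted p = 0.287) and Cox7b one of 0.12 (adjusted p = 0.859), and neither was called. Ndufa4, counted here with complex I, had one of 0.18 (adjusted p = 0.805).

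Complex I has a matrix arm, made of the N module that oxidises NADH and the Q module that reduces ubiquinone, and a membrane arm (P module) that pumps protons. Of the members called at 8W, 1 of 10 was in the N module, 2 of 5 in the Q module and 4 of 19 in the P module, and the medians of the log2 fold change were -0.69, -0.72 and -0.88. Ndufs8, an iron-sulfur subunit of the Q module, was at 246, 98.7 and 168 CPM at 0W and at 58.6, 37.9 and 50.9 CPM at 8W, a log2 fold change of -1.80 (SE 0.401, adjusted p = 0.0304, edgeR). Ndufs7, the neighbouring iron-sulfur subunit, was at 316, 288 and 234 CPM at 0W and at 96.9, 80.6 and 124 CPM at 8W (-1.47, SE 0.310, adjusted p = 0.0238, edgeR). Both groups stood apart for both genes. Ndufa13, a membrane-arm subunit also known as GRIM-19 (chr8:69894180-69902558, minus strand), was at 128, 108 and 203 CPM at 0W and at 56.1, 31.8 and 60.0 CPM at 8W. Its log2 fold change was -1.56 (SE 0.332, adjusted p = 0.0238, edgeR). Ndufb7, Ndufb10, Ndufa11 and Ndufa2 made up the rest, from -1.46 to -1.23. The catalytic core subunits of the N module did not pass the test: Ndufs1, the largest iron-sulfur subunit, was at 69.8, 147 and 97.4 CPM at 0W and at 114, 134 and 145 CPM at 8W (0.32, adjusted p = 0.625, edgeR), and Ndufv1, which binds NADH, had a log2 fold change of -0.78 (adjusted p = 0.145).

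In complex III the called members were both small subunits outside the catalytic centre. Uqcr11 (chr10:80402997-80406830, minus strand) was at 318, 302 and 387 CPM at 0W and at 125, 131 and 159 CPM at 8W (log2 fold change -1.28, SE 0.274, adjusted p = 0.0245, edgeR). Uqcrq had a log2 fold change of -1.33 (adjusted p = 0.0479). Uqcrfs1, the Rieske iron-sulfur protein, and Uqcrc1, a core protein, had log2 fold changes of -0.47 (adjusted p = 0.463) and -0.80 (adjusted p = 0.242). Uqcrb lay in the other direction, at 285, 179 and 174 CPM at 0W and 477, 286 and 236 CPM at 8W, with overlapping groups (0.65, adjusted p = 0.352, edgeR). In complex II, Sdha, the flavoprotein that holds the active site, was at 323, 190 and 144 CPM at 0W and at 272, 220 and 308 CPM at 8W (0.28, SE 0.358, adjusted p = 0.67, edgeR). Sdhb, the iron-sulfur subunit, had a log2 fold change of -0.80 (adjusted p = 0.137), and of the membrane anchors Sdhc had one of -0.98 (adjusted p = 0.069) and Sdhd one of 0.92 (adjusted p = 0.226).

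In complex V the called members were Atp5k and Atp5e, 2 of its smallest subunits, and Atp5o, part of the stalk that holds the catalytic head in place. Atp5o was at 382, 140 and 286 CPM at 0W and at 90.3, 84.3 and 94.9 CPM at 8W (log2 fold change -1.58, SE 0.327, adjusted p = 0.0238, edgeR). Atp5k had a log2 fold change of -1.77 (adjusted p = 0.0356) and Atp5e one of -1.54 (adjusted p = 0.0459). The catalytic head itself was not called. Atp5b, its catalytic subunit, was at 1699, 1078 and 1595 CPM at 0W and at 704, 780 and 917 CPM at 8W, so the groups stood apart (-0.87, SE 0.261, adjusted p = 0.0703, edgeR). Atp5a1 and Atp5c1 had log2 fold changes of -0.23 and -0.21. The 3 genes for the c ring encode the same mature protein and did not move alike. Atp5g1 and Atp5g2 had log2 fold changes of -1.09 (adjusted p = 0.198) and -1.38 (adjusted p = 0.0799), and Atp5g3 one of 0.50 (adjusted p = 0.311). Atp5g3 was the most abundant of them, at 392, 381 and 398 CPM at 0W and 696, 392 and 562 CPM at 8W. The member with an unadjusted p under 0.05 and a higher level was Atp5s, at 19.0, 10.2 and 1.28 CPM at 0W and 65.5, 53.7 and 29.0 CPM at 8W (2.27, adjusted p = 0.0693, edgeR). Over all members, 35 had all 3 libraries at 8W below all 3 at 0W, where 12.8% of all genes did, and 3 (Ndufs4, Sdhd and Atp5s) had them above, where 14.8% did.

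**Figure D2:**
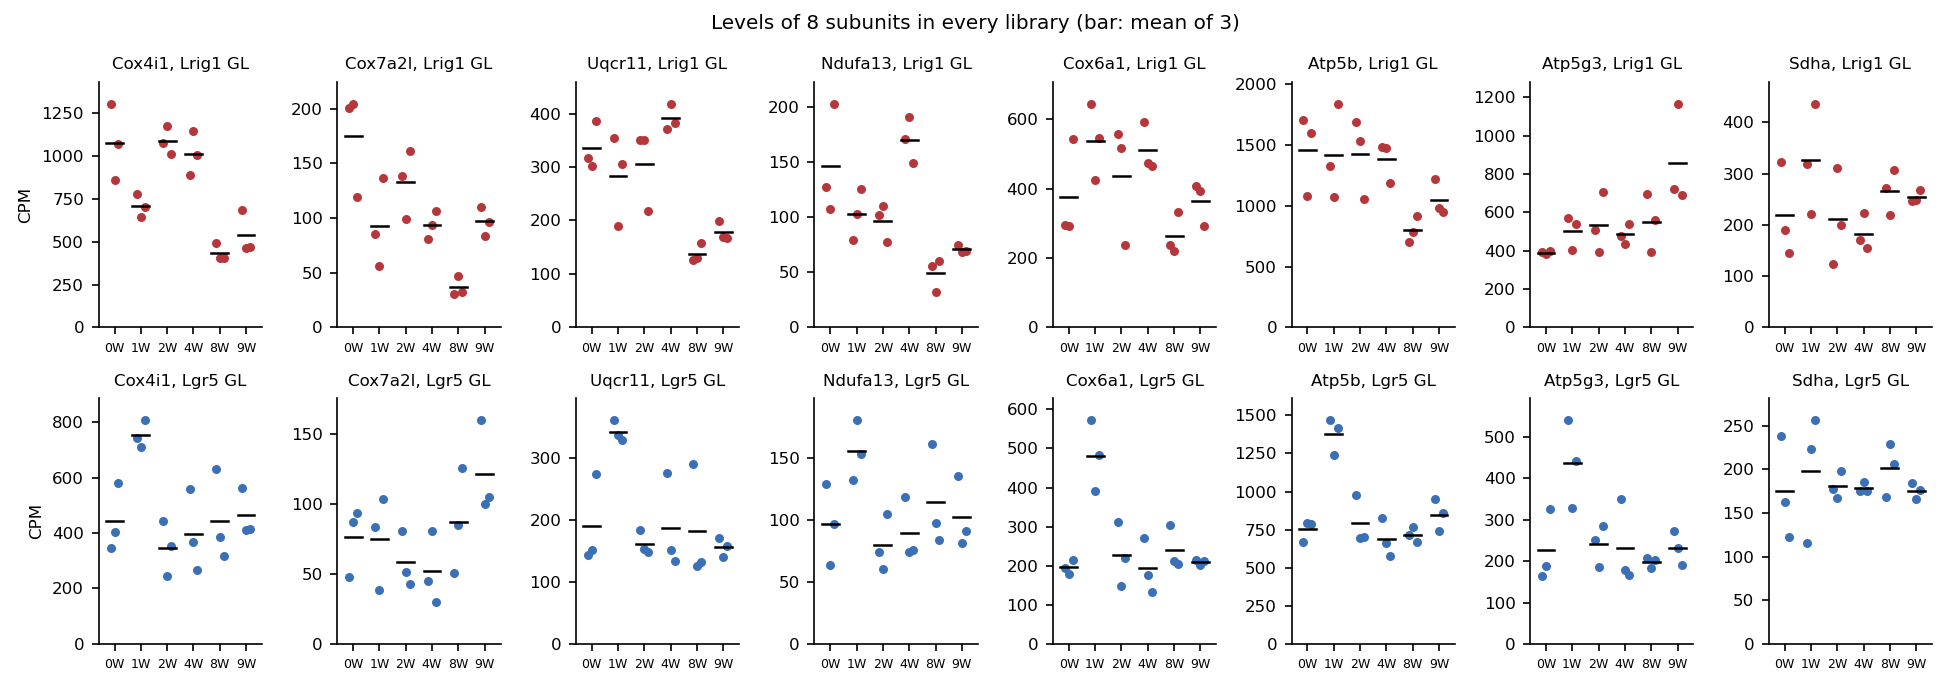
Level (CPM) of 8 named members in every library, by time point, with Lrig1 GL and Lgr5 GL cells side by side; each point is 1 library and the line is the mean of 3. Cox7a2l, Cox4i1, Ndufa13 and Uqcr11 are lowest at 8W in Lrig1 GL cells by their mean, and Cox6a1 and Atp5b are highest at 1W in Lgr5 GL cells.

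The step from 4W to 8W in Lrig1 GL cells is not measured against 0W, but uses the same 8W libraries. The spread behind its p-values was estimated over all Lrig1 GL libraries, those of 0W included. Here 24 of 76 members were called lower and 0 higher, where 1.94% of all genes were called lower and 1.78% higher. At an unadjusted p under 0.05, 46 were lower (10.2% of all genes) and 1 was higher. The median log2 fold change was -0.99, against 0.07 over all genes, and 16 members lay above 0, as did 51.9% of all genes. All 3 libraries at 8W lay below all 3 at 4W in 52 members and in 15.8% of all genes. The called members were 11 of 35 of complex I, 4 of 8 of complex III, 6 of 12 of complex IV, 3 of 17 of complex V and 0 of 4 of complex II. Ndufa13 was at 171, 192 and 149 CPM at 4W, and its log2 fold change was -1.79 (adjusted p = 0.0157, edgeR). Uqcr11 was at 371, 418 and 383 CPM at 4W, a log2 fold change of -1.50 (adjusted p = 0.0157, edgeR). In Cox6b1, a subunit on the outer face of complex IV, the libraries were at 453, 356 and 287 CPM at 4W and at 133, 98.9 and 114 CPM at 8W (-1.66, adjusted p = 0.0171, edgeR). The small subunits Uqcr10, Uqcrh and Uqcrq of complex III were called with Uqcr11, with log2 fold changes from -1.44 to -1.35. The count of 24 was 0 when 4W replicate a, 4W replicate b, 8W replicate a or 8W replicate b was left out, 6 without 8W replicate c and 15 without 4W replicate c, with a median between -1.04 and -0.95. This step also ran with GC content (rho -0.485 over 76 members). With the GC trend removed, 3 members were called and the median was -0.62, with 65 of 76 below 0, and with surrogate variables 0 were called. The step was not particular to the members. Cytoplasmic ribosomal protein genes lay below 0 in 81 of 85, with a median of -1.07 and 29 called lower (34.1%, against 31.6% of the members). All 13 mRNAs encoded in mitochondrial DNA lay above 0, with 3 called higher.

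**Figure D3:**
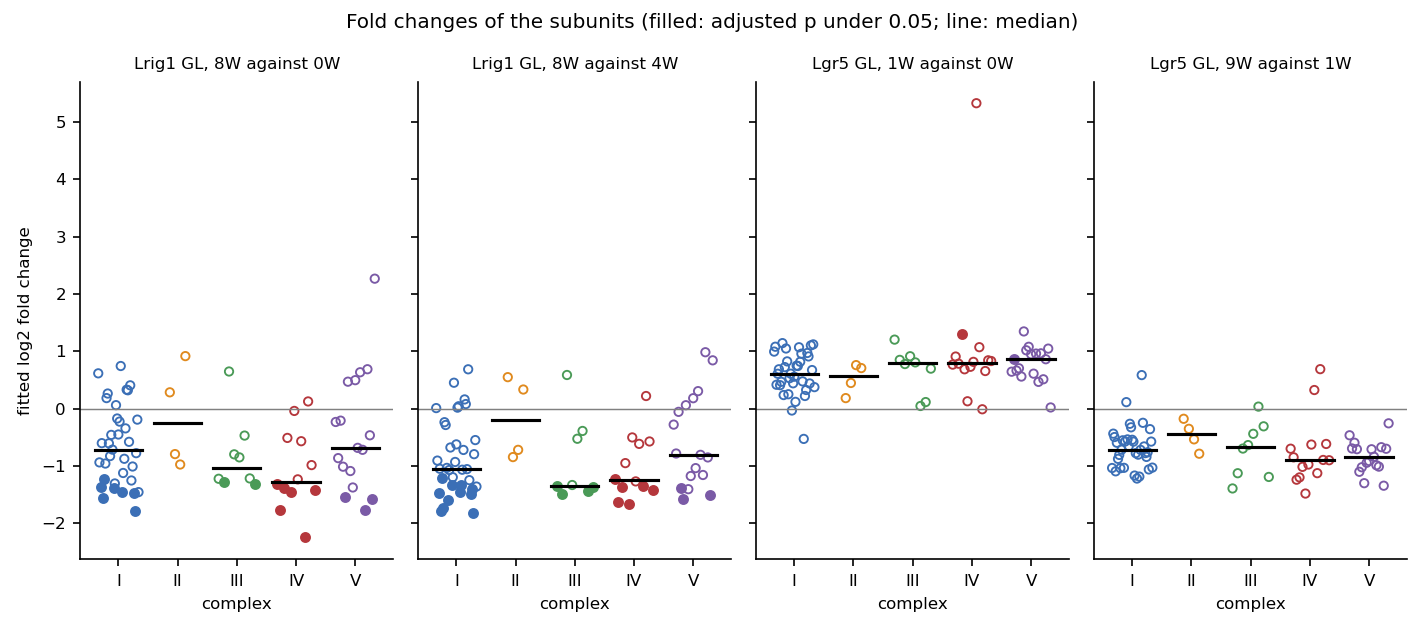
Log2 fold change of each member, by complex, for Lrig1 GL cells at 8W against 0W and at 8W against 4W and for Lgr5 GL cells at 1W against 0W and at 9W against 1W; each point is 1 member, filled where the adjusted p is under 0.05, and the line is the median of the complex. The medians of all complexes lie below 0 in the Lrig1 GL panels and above 0 in the panel of Lgr5 GL cells at 1W, where the highest point is Cox7a1, whose 0W libraries are all at 0.

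Other gene groups and library features moved with the 8W change, and beyond the alternative fits given here their part in the result was not tested. All 13 mRNAs encoded in mitochondrial DNA, which code for the partner subunits of the same complexes, lay above 0W at 8W, with a median log2 fold change of 2.55, and with these genes left out of the fit 20 members were called lower. Of the 13 mRNAs, 6 were called (mt-Nd2, mt-Nd4, mt-Nd5, mt-Co1, mt-Co2 and mt-Co3, where 2.86% of all genes were called in either direction). Their sum was 20440, 13228 and 19959 CPM at 0W and 119852, 65154 and 110683 CPM at 8W. So the nuclear-encoded and the mitochondrially encoded subunits lay on opposite sides of 0W in these libraries. Cytoplasmic ribosomal protein genes lay on the same side as the members, with 79 of 85 below 0, a median of -0.83 and 9 called lower. The summed keratinocyte markers overlapped, at 20400 to 27800 CPM at 8W and 21900 to 25200 CPM at 0W, but 4 of the 7 did not overlap by themselves. Krt5 was lower, at 2118 to 3358 CPM against 3438 to 4505 CPM at 0W, and Krt15, a keratin of HF stem cells, was too, at 1527 to 2350 CPM against 3863 to 6750 CPM. Dsp, which encodes desmoplakin of the desmosomes, was higher, at 6516 to 10910 CPM against 1287 to 2681 CPM, as was Trp63, a transcription factor of basal keratinocytes, at 801 to 839 CPM against 252 to 595 CPM. Lrig1, the gene behind the label of this population, was at 74.3 to 124 CPM at 8W and 183 to 244 CPM at 0W. It also lay below 0W, without overlap, at 1W, 2W, 4W and 9W. Fibroblast markers were at 3.75 to 55.0 CPM at 8W and 7.70 to 41.6 CPM at 0W.

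The base composition of the counts also differed. The mean GC content of the exons that received counts was 46.8 to 47.2% at 8W, 49.6 to 49.8% at 0W and 46.9 to 48.1% at 9W. This mean weights the annotated GC content of each gene's longest transcript by its counts, and does not measure the reads. Mitochondrially encoded genes and Gm12415 are left out of it. A 2W library, replicate c, was at 47.7% and had a member sum of 15668 CPM, beside 16334 and 15637 CPM in the other 2W libraries. Across members, the log2 fold change at 8W ran with the GC content of their own exons (Spearman's rho -0.467 over 76 members, which share the libraries and are not independent). The 38 members of lower GC content had a median of -0.29 with 23 below 0, and the 38 of higher GC content a median of -0.95 with 36 below 0. With the trend on GC content over all genes removed, the median was -0.53, 58 of 76 members lay below 0 and 30 were lower at an unadjusted p under 0.05, against 6.43% of all genes. In that fit 3 members were called lower, namely Cox5a (-2.69, adjusted p = 0.0188), Cox7a2l (-1.99, adjusted p = 0.025) and Atp5o (-1.65, adjusted p = 0.032).

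**Figure D4:**
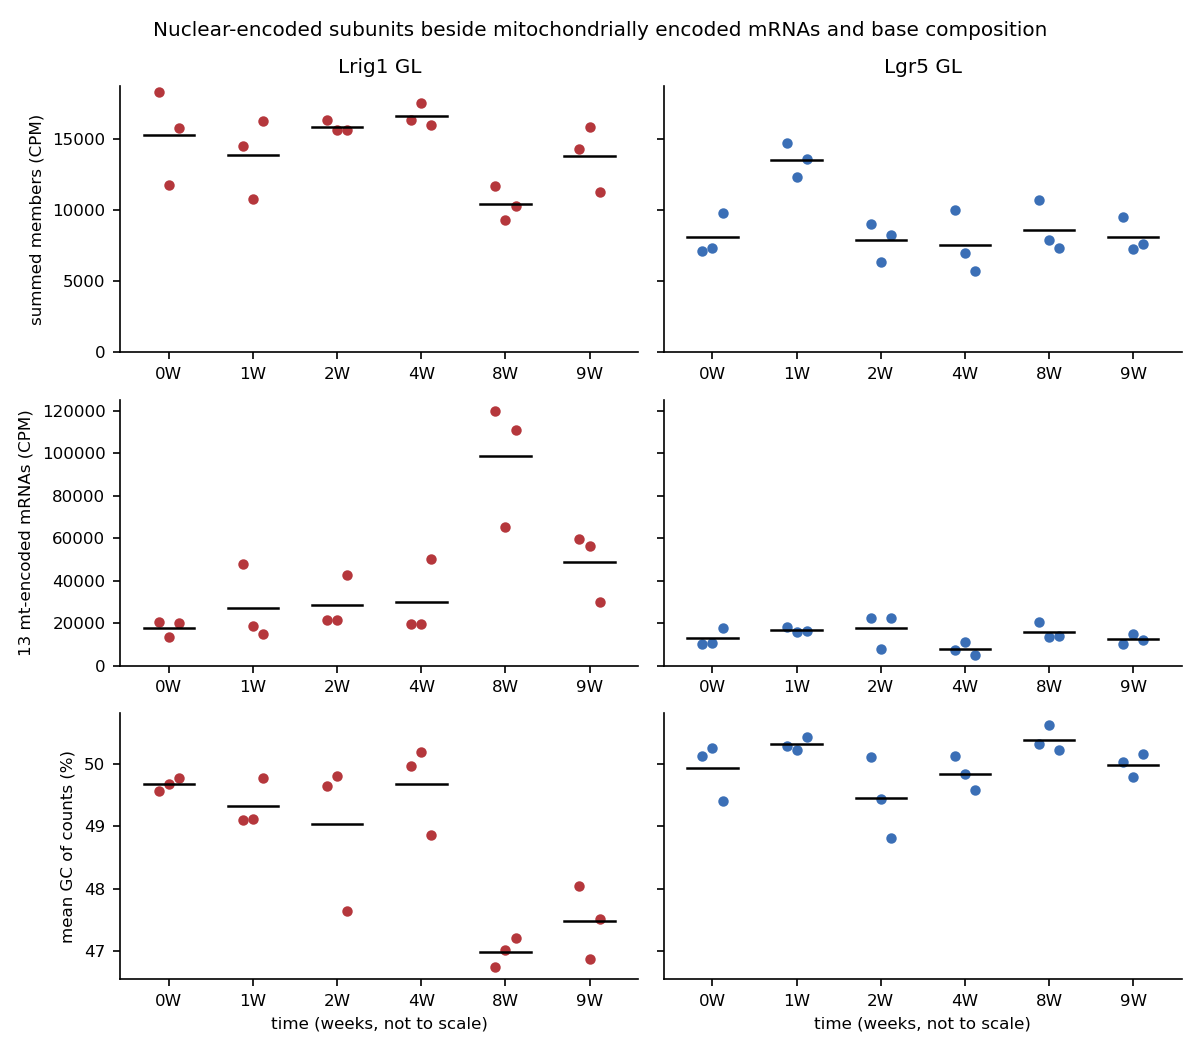
Summed level of the members (CPM), summed level of the 13 mitochondrially encoded mRNAs (CPM) and mean GC content of the counted exons (%) in every library, by time point and population; each point is 1 library and the line is the mean of 3. The 8W libraries of Lrig1 GL cells have the highest mitochondrially encoded sums, from 65154 to 119852 CPM, with a GC content of 46.8 to 47.2%.

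**Figure D5:**
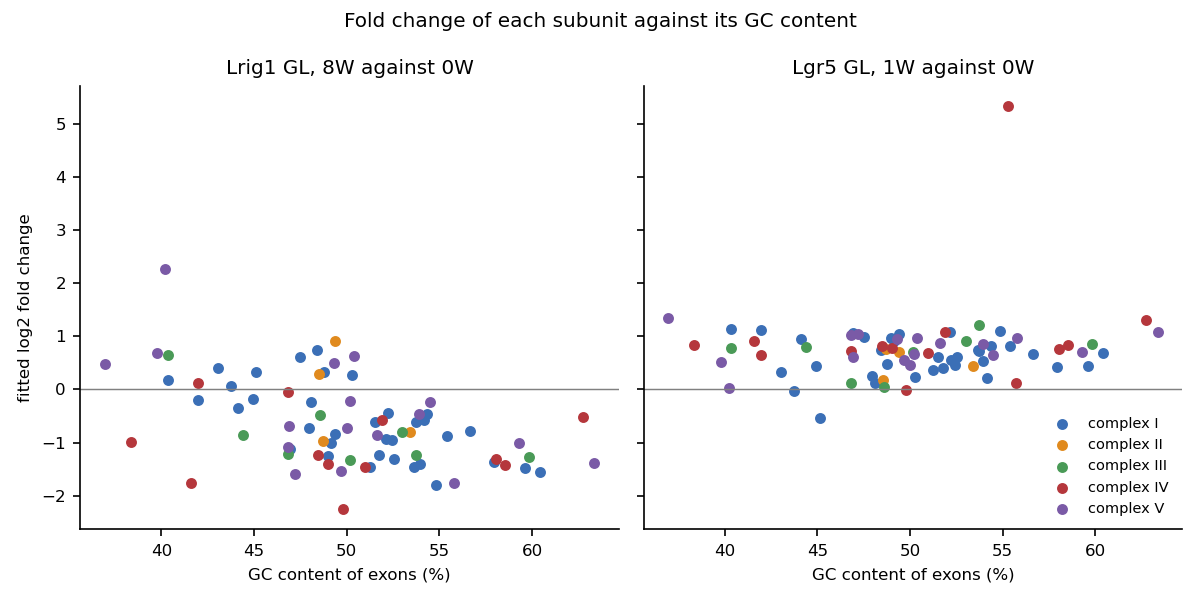
Log2 fold change of each member against the GC content of its exons (%), for Lrig1 GL cells at 8W against 0W (76 members, Spearman's rho -0.467) and for Lgr5 GL cells at 1W against 0W (78 members, rho 0.0779). Each point is 1 member, coloured by complex, and the highest point of the second panel is Cox7a1, whose 0W libraries are all at 0.

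Genes that work beside the complexes were examined as lists. Of 44 assembly factors tested in Lrig1 GL cells at 8W, 27 lay below 0, 8 were lower and 2 higher at an unadjusted p under 0.05 (10.7 and 12.3% of all genes), and 1 was called lower, Uqcc3, which acts in the assembly of complex III (-1.96, adjusted p = 0.0238, edgeR). Among 16 electron carriers and their enzymes, 8 lay below 0, 1 was lower and 1 higher before adjustment, and Cyc1 was called lower. Cyc1 encodes cytochrome c1, a catalytic subunit of complex III that the naming rule does not reach, and its mean was 328 CPM at 0W and 98.9 CPM at 8W (-1.73, adjusted p = 0.0276, edgeR). Of 16 genes of the tricarboxylic acid cycle and pyruvate dehydrogenase, 13 lay below 0, 5 were lower and 0 higher at an unadjusted p under 0.05, and Mdh2 was called lower (-1.27, adjusted p = 0.0497, edgeR). Glycolysis had 8 of 15 below 0 and 0 called, with 2 higher and 3 lower at an unadjusted p under 0.05. Regulators of mitochondrial genes, such as Ppargc1b, Nrf1 and Gabpa, had 7 of 14 below 0 and 0 called, with 3 higher and 2 lower at an unadjusted p under 0.05.

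At the other time points after the first wound, the members stayed near 0W in Lrig1 GL cells. The median log2 fold change of the members was -0.11 at 1W, 0.05 at 2W and 0.07 at 4W. edgeR's quasi-likelihood test called 0 members at each of them, where 0.217, 0 and 0.0419% of all genes were called, and DESeq2 called 0, 1 and 0. With an unadjusted p under 0.05, 6 members were lower at 1W (5.07% of all genes), 2 were higher at 2W (5.85%), and at 4W 4 were higher and 1 lower (8.37% in either direction). Other genes did move at 1W. Of 15 glycolysis genes, 14 lay above 0, with a median of 0.73 and 3 called higher. Krt14 was at 16660 to 19860 CPM at 1W and 7281 to 12310 CPM at 0W, and Krt15 at 186 to 1189 CPM and 3863 to 6750 CPM. At 9W, 1 week after the second wound, 26 members lay above and 50 below 0, with a median of -0.42. The called member was Cox4i1, at 688, 464 and 472 CPM (-0.99, SE 0.232, adjusted p = 0.0452, edgeR), where 0.245% of all genes were called lower. All 3 of these libraries lay below the lowest 0W library. Without the filter on low counts edgeR called 0 members here and DESeq2 called 13. Leaving out 1 library gave 0 to 2, and 0 without 9W replicate 2 or 3 or 0W replicate 1 or 3.

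Before adjustment, 21 members had a p under 0.05 and were lower at 9W (7.81% of all genes), and 9 were higher (10.7%). The count of higher members is near the share of all genes. The 9 were Ndufa1, Ndufa5 and Ndufb6 of complex I, Sdhd, Uqcrb, and Atp5f1, Atp5g3, Atp5j and Atp5s of complex V, and they were picked out after their values were seen. Atp5g3, whose ESRRA motif is shown above, was at 720, 1165 and 688 CPM at 9W, above all libraries of 0W (1.14, adjusted p = 0.0613, edgeR). No overlap with 0W was seen for 17 members in the lower direction (10.4% of all genes) and for 9 in the higher (13.9%). The log2 fold change ran with GC content at 9W too (rho -0.453 over 76 members). With the GC trend removed, 7 members were lower (5.23% of all genes) and 9 higher (7.78%) at an unadjusted p under 0.05, and the median was -0.21, while leaving out single libraries moved it between -0.57 and -0.19. Between the second and the first wound, 9W against 1W, the median was -0.24, with 0 called by edgeR (0% of all genes) and 1 by DESeq2. With an unadjusted p under 0.05, 8 were higher and 3 lower (8.87% of all genes in either direction). The median was 0.01 with the GC trend removed, with 39 members above and 37 below 0 (rho with GC content -0.543), and -0.40 to -0.14 with single libraries left out.

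Over the whole time course, edgeR's test of the 5 time points against 0W called 4 members in Lrig1 GL cells, where 1.63% of all genes were called. This call also asked for a log2 fold change over 1 in either direction at some time point. These were Cox4i1 (adjusted p = 0.0187), Uqcr11 (adjusted p = 0.0373), Cox7a2l (adjusted p = 0.0386) and Ndufa13 (adjusted p = 0.041). An unadjusted p under 0.05 was reached by 40 members (20.5% of all genes), and the others did not pass the adjustment, among them Atp5o (adjusted p = 0.0575), the lowest of complex V. The lowest of complex II was Sdhc (adjusted p = 0.162). The count of 4 was 0 without 8W replicate b or c and 11 without 2W replicate c, the library of low GC content named above.

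In Lgr5 GL cells at 1W the members lay above 0W, in the opposite direction to the 8W change of Lrig1 GL cells. The log2 fold change was above 0 in 75 of 78 members and in 46.5% of all genes, with a median of 0.73, against -0.08 over all genes. edgeR's quasi-likelihood test, adjusted over 18025 genes, called 2 members higher and 0 lower, where 0.433% of all genes were called higher. At an unadjusted p under 0.05, 33 members were higher and 0 lower, where 6.79% of all genes were higher. All 3 libraries at 1W lay above all 3 at 0W in 42 members (9.98% of all genes), and below them in 1 (9.8%). DESeq2 called 12 members. The count of 2 was 0 to 3 and the median 0.61 to 0.92 when single libraries were left out, and 0 members were called without 0W replicate a or b or 1W replicate 1 or 3.

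The called members were Cox6a1 and Atp5b. Cox6a1, a regulatory subunit of complex IV that carries 2 NRF1 motifs in its window (chr5:115345642-115348981, minus strand), was at 193, 179 and 215 CPM at 0W and at 572, 390 and 484 CPM at 1W. The groups stood far apart, and at 9W the level was 215, 201 and 213 CPM. Its log2 fold change at 1W was 1.30 (SE 0.302, adjusted p = 0.0419, edgeR). Atp5b, the catalytic subunit of complex V (chr10:128083273-128090391, plus strand), was at 671, 792 and 790 CPM at 0W and at 1467, 1241 and 1418 CPM at 1W. No library of the groups overlapped, and the log2 fold change was 0.87 (SE 0.209, adjusted p = 0.047, edgeR).

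The log2 fold changes of the members had quartiles of 0.47 and 0.94. Complex V had the highest median of the log2 fold change, 0.86, with 17 of 17 above 0, followed by complex IV with 0.80, complex III with 0.79, complex I with 0.61 and complex II with 0.58. Atp5f1, a stalk subunit of complex V, was at 74.0, 137 and 92.4 CPM at 0W and at 295, 254 and 222 CPM at 1W (1.35, adjusted p = 0.067, edgeR). For the c ring genes Atp5g1, Atp5g2 and Atp5g3 the log2 fold change was 1.02, 1.08 and 0.95 in turn, and none was called. Cox4i1 was at 344, 404 and 581 CPM at 0W and at 744, 710 and 807 CPM at 1W, without overlap (0.77, adjusted p = 0.206, edgeR). Sdha, whose window holds 3 NRF1 motifs, was at 239, 163 and 123 CPM at 0W and 116, 224 and 256 CPM at 1W, and its groups overlapped (0.18, adjusted p = 0.778, edgeR). The log2 fold change was below 0 for 3 members, Ndufs1, Ndufb2 and Cox7a2l, and Ndufs1 was the one whose 1W libraries all lay below 0W. It was at 88.0, 111 and 90.3 CPM at 0W and 58.4, 67.9 and 73.7 CPM at 1W (-0.53, adjusted p = 0.373, edgeR). Cox7a2l was at 47.7, 87.2 and 93.7 CPM and at 83.5, 38.5 and 103 CPM (-0.01, adjusted p = 0.999, edgeR).

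Glycolysis genes were higher in the same libraries. Of 15, 12 lay above 0, with a median of 1.36, and 5 were called, among them Ldha (1.52, adjusted p = 0.0333), Pkm (1.38, adjusted p = 0.0307) and Slc2a1, which encodes a glucose transporter (3.07, adjusted p = 0.0136, edgeR). Cytoplasmic ribosomal protein genes lay above 0 in 85 of 86, with a median of 0.86 and 2 called. Mitochondrially encoded mRNAs lay above 0 in 12 of 13 with 0 called and 0 at an unadjusted p under 0.05, and their sum was 10323 to 17436 CPM at 0W and 15862 to 18175 CPM at 1W. Cyc1 had a log2 fold change of 1.18 (adjusted p = 0.0525). Assembly factors lay above 0 in 33 of 44 with 0 called, genes of the tricarboxylic acid cycle in 10 of 16 with 0 called, carriers in 10 of 16 with 0 called and regulators in 8 of 15 with 0 called. At an unadjusted p under 0.05 these 4 lists had 3, 5, 6 and 0 genes higher (6.79% of all genes), and 2, 0, 1 and 3 lower. The share of all genes that were lower is given for another fit only, with the trend on GC content removed. It was 12.1% there, and is not a background for these counts. The mean GC content of the counted exons was 50.2 to 50.4% at 1W and 49.4 to 50.3% at 0W, and the log2 fold change of the members did not run with their own GC content (rho 0.0779 over 78 members). With the trend on GC content removed, 74 of 78 members lay above 0, with a median of 0.70, and Cox6a1 was called (1.40, adjusted p = 0.0259). The non-coding RNA Gm12415 took between 12.04 and 52.07% of the counts of an Lgr5 GL library, and with it left out the median was 0.74 and 2 members were called. In Lrig1 GL libraries it had at most 4 counts. The summed keratinocyte markers were at 27300 to 33200 CPM at 1W and overlapped with 0W, but single markers did not. Krt14 was higher, at 12090 to 16480 CPM against 4589 to 5190 CPM at 0W. Krt15 was lower, at 4036 to 10190 CPM against 13510 to 18380 CPM. So were Dsp (924 to 1082 against 1431 to 2039 CPM), Col17a1 (911 to 1120 against 1272 to 3069 CPM) and Lgr5 (31.3 to 191 against 321 to 499 CPM). Krt5, Itga6 and Trp63 overlapped. Fibroblast markers were at 125 to 152 CPM, against 122 to 358 CPM at 0W.

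At the later time points the medians of Lgr5 GL cells lay within 0.11 of 0, while the summed keratinocyte markers were lower at 2W and 4W, as given above. The medians of the log2 fold change against 0W were -0.04 at 2W, -0.11 at 4W, 0.10 at 8W and -0.01 at 9W. edgeR and DESeq2 called 0 members at each, and edgeR called 0, 0.155, 0 and 0% of all genes. At an unadjusted p under 0.05 there were 2, 2, 2 and 1 members, beside 8.79, 10.7, 5.94 and 6.42% of all genes. The comparison of 9W with 1W is not measured against 0W, but uses the same 1W libraries. Its spread was estimated over all Lgr5 GL libraries, those of 0W included. In it, 5 of 78 members lay above 0, as did 53.4% of all genes, with a median of -0.72 against 0.09 over all genes. Here edgeR called 0 and DESeq2 called 12 (0.061% of all genes were called lower by edgeR), 40 members were lower (5.68% of all genes) and 0 higher at an unadjusted p under 0.05, and 52 had no overlap between libraries (11% of all genes). The 1W and 9W libraries come 1 week after the first and the second wound. Cox6a1 had a log2 fold change of -1.20 (SE 0.301, adjusted p = 0.0766, edgeR) and Atp5b one of -0.70 (adjusted p = 0.128). Other groups moved the same way. Ribosomal protein genes lay below 0 in 85 of 86 (median -0.82), and glycolysis genes in 13 of 15 (median -1.30, 3 called lower). The summed keratinocyte markers were at 21500 to 25500 CPM at 9W and 27300 to 33200 CPM at 1W. Among them, Krt14 was at 3734 to 4240 CPM and 12090 to 16480 CPM. Over the time course edgeR called 0 members in Lgr5 GL cells (1.13% of all genes), with 24 at an unadjusted p under 0.05 (16.9%), and DESeq2 called 5.

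Whether the changes differed between populations was tested in a model of all 36 libraries over 13980 genes. At 8W against 0W, 57 of 76 members had a lower log2 fold change in Lrig1 GL than in Lgr5 GL cells, with a median difference of -0.94, against 0.01 over all genes. edgeR called 2 of them (1.51% of all genes), Cox7a2l and Ndufa13. For Cox7a2l the log2 fold change of Lrig1 GL cells in this model was -2.23 and that of Lgr5 GL cells 0.17, a difference of -2.40 (SE 0.570, adjusted p = 0.0316, edgeR). For Ndufa13 it was -1.54 and 0.25, a difference of -1.80 (SE 0.476, adjusted p = 0.0478, edgeR). With the GC trend removed neither was called (adjusted p = 0.0929 for Cox7a2l and 0.521 for Ndufa13, edgeR), and Cox5a was (-2.58, SE 0.548, adjusted p = 0.0437, edgeR). Before adjustment, at p under 0.05, 31 members had the higher log2 fold change in Lgr5 GL cells and 3 in the other population (18.6% of all genes in either direction).

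At 1W against 0W, 71 of 76 members had a lower log2 fold change in Lrig1 GL than in Lgr5 GL cells, with a median difference of -0.89. None passed the adjustment in edgeR's quasi-likelihood test (0.0572% of all genes did), and 3 did in its likelihood ratio test. Before adjustment there were 29 at p under 0.05, all with the higher value in Lgr5 GL cells (7.18% of all genes in this direction). For Cox4i1 the log2 fold change of Lrig1 GL cells in this model was -0.62 and that of Lgr5 GL cells 0.79, a difference of -1.41 (SE 0.407, adjusted p = 0.105, edgeR). At 9W against 1W, 69 of 76 differences lay above 0 with a median of 0.57 and 18 had an unadjusted p under 0.05 (13% of all genes). edgeR's quasi-likelihood test called 0 (0.107% of all genes) and its likelihood ratio test 3. At 9W against 0W it called 0 (0.193% of all genes), with 15 at an unadjusted p under 0.05 (13.4%).

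Some members share exon bases with other genes, and the counting options given in the study (exons, grouped by gene name) name no strand setting. In the GENCODE M21 annotation 26 of 79 members overlap another gene on exons, 22 of them a protein-coding one and 23 one on the opposite strand. Among the members called in any comparison, the protein-coding partners are Emc8 of Cox4i1, Tssk6 of Ndufa13, Vmac of Ndufa11, Tmco6 of Ndufa2, Tfpt of Ndufa3, Mrpl36 of Ndufs6 and Cbarp of Atp5d, all on the opposite strand, and, on the same strand, Donson of Atp5o and Gm20538 of Ndufb8. Non-coding partners on the opposite strand are Gm26631 of Cox5a and D430001F17Rik and Gm15976 of Atp5o. Unless the counting used strand, reads in an overlap can belong to the member or to the partner. Whether such reads were counted or left out is not given. Cox6c2 is a near-identical copy of Cox6c, and its mean levels, 13.2 CPM in the Lrig1 table and 6.74 CPM in the Lgr5 table, are uncertain.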

How the data were processed

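Mini-bulk RNA-seq libraries of 150 tdTomato+ cells were made by the authors with a modified Smart-seq2 protocol, whose oligo(dT) capture and amplification carry no molecular identifiers, so depth covers counting error only. Reads were trimmed with Trim Galore 0.5.0, aligned to GRCm38 with HISAT2 and assigned with featureCounts to the exons of GENCODE M20, summed per gene name. The counts are as the authors deposited them, without normalization, in 1 table per population. For 15 libraries the replicate number follows the labels, and 21 could be matched to a group only and are called a, b and c.

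Groups came from the labels. Each population was fitted apart with edgeR 4.0.16 (R 4.3.3). filterByExpr (minimum of 10 counts) kept 14306 and 18025 genes, TMM scaled the libraries (factors 0.668 to 1.23), and the quasi-likelihood F-test (prior count 0.125) was applied to 5 coefficients against 0W, to 7 comparisons and, over both populations, to differences between changes. A gene was called at a Benjamini-Hochberg adjusted p under 0.05 over all genes tested. The 5 comparisons with 0W share its libraries. With 3 libraries a group, the smallest two-sided p of an exact permutation test would be 0.1. Methods were tested on simulated data.

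Named genes were core subunits, tissue forms, the 10 called members of smallest p per comparison and, in each complex, the member of smallest time course p; other called members and those described as seen first were added. The members and lists were chosen with earlier results of these data known. GC content, length and positions came from GENCODE M21, which held 99.4 and 99.3% of the names. Alternatives were DESeq2 1.42.0, its size factors, a likelihood ratio test, library totals, no filter, a prior count of 2, surrogate variables (sva 3.50.0), GC trend removal, Gm12415 or mitochondrial genes left out, a replicate block and each library left out. The study itself processed its normalized counts with the sva package. The sources do not say whether libraries of the same number share a mouse or a batch. The scRNA-seq, ATAC-seq and other assays of the study were not analysed here.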

Additional observations from a re-analysis of the deposited data

Results flagged for a closer look

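The change from 0W to 8W differed between Lrig1 GL and Lgr5 GL cells for 2 of 76 members, by edgeR's quasi-likelihood test of the difference itself over 13980 genes. This count is near the share of all genes called in the same test, 1.51%, and describes these 2 genes rather than the members as a group. For Cox7a2l the log2 fold change of Lrig1 GL minus that of Lgr5 GL cells was -2.40 (SE 0.570, adjusted p = 0.0316). The Lgr5 GL libraries were at 47.7, 87.2 and 93.7 CPM at 0W and at 50.8, 85.1 and 125 CPM at 8W, so they overlapped, whereas those of Lrig1 GL cells did not. For Ndufa13 the difference was -1.80 (SE 0.476, adjusted p = 0.0478), and its Lgr5 GL libraries were at 129, 63.3 and 96.8 CPM at 0W and at 161, 97.5 and 83.8 CPM at 8W. The 8W libraries of Lrig1 GL cells also had the mean GC content of 46.8 to 47.2% given above, against 50.2 to 50.6% at 8W in Lgr5 GL cells. With the trend on GC content removed, neither difference passed the threshold. It was -2.19 for Cox7a2l (SE 0.558, adjusted p = 0.0929, edgeR) and -0.80 for Ndufa13 (SE 0.474, adjusted p = 0.521, edgeR). With DESeq2 size factors Cox7a2l passed (adjusted p = 0.0319) and Ndufa13 did not (adjusted p = 0.0581).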

How the results depend on the processing

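The direction of the median held under every setting tried for the changes of Lrig1 GL cells at 8W and of Lgr5 GL cells at 1W, while the number of members called varied widely. For DESeq2, the likelihood ratio test and library totals, the share of all genes called is not given, here or above. A larger count there cannot be set against all genes. With the GC trend removed, 0.454% of all genes were called at 8W against 0W, 0.503% at 8W against 4W, and 1.36% in Lgr5 GL cells at 1W. In Lrig1 GL cells at 8W against 0W (18 called, median -0.80), 29 were called by DESeq2, 29 by the likelihood ratio test, 29 with library totals alone, 11 with no filter on low counts, 0 with surrogate variables, 3 with the GC trend removed and 3 with the trends on GC content and exon length removed, a setting chosen after seeing the data. The median was -1.07 with totals, -0.375 with surrogate variables, -0.531 with the GC trend removed and -0.309 with both trends removed. At 8W against 4W (24, -0.99), 37 were called with totals, 14 with no filter, 0 with surrogate variables, 3 with the GC trend and 1 with both trends removed, and the median was -1.22, -0.588 (surrogate variables), -0.618 and -0.313 (trends). At 9W against 0W (1), 13 were called by DESeq2, 6 by the likelihood ratio test, 0 with no filter, 0 with surrogate variables and 0 with the block. At 2W against 0W DESeq2 and the likelihood ratio test called 1 each, and at 9W against 1W DESeq2 called 1. Over the time course (4), 25 were called by DESeq2, 25 by the likelihood ratio test, 16 with totals, 1 with no filter, 0 with surrogate variables and 1 with either trend setting.

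In Lgr5 GL cells at 1W against 0W (2, 0.73), 12 were called by DESeq2, 7 by the likelihood ratio test, 0 with totals, 0 with no filter, 0 with surrogate variables and 1 with either trend setting, and the median was 0.334 with surrogate variables and 0.403 with both trends removed. At 9W against 1W (0), DESeq2 called 12 and the likelihood ratio test 5, and the median of -0.72 was -0.359 with totals, -0.159 with surrogate variables and -0.509 with both trends removed. Over the time course (0), DESeq2 called 5, the likelihood ratio test 4 and the fit with the GC trend removed 1. DESeq2 called 1 at 8W against 4W. With totals the median was 0.243 at 2W, 0.399 at 8W and 0.384 at 9W against 0W, and with surrogate variables 0.301 at 2W. For differences between populations, the likelihood ratio test called 3 at 1W and 3 at 9W against 1W, and at 8W (2) it called 12, DESeq2 size factors 1, totals 14 and the GC trend removed 1 (Cox5a, in place of Cox7a2l and Ndufa13).

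Single libraries left out gave 0 to 22 called in Lrig1 GL cells at 8W against 0W (11 without 9W replicate 2), 0 to 26 at 8W against 4W, 0 to 2 at 9W against 0W, 0 to 11 over the time course, and in Lgr5 GL cells 0 to 3 at 1W and 0 to 1 over the time course. The median at 4W in Lrig1 GL cells ran from -0.0369 to 0.312. With both trends removed, 2 called members changed sign, Cox8a at 8W against 4W (0.033, adjusted p = 0.977) and Uqcr11 at 8W against 0W (0.0839, adjusted p = 0.914). The causes were not tested.

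The sources give no pairing of libraries by replicate number. Deviations of same-numbered libraries from their time point mean had a Pearson's r of -0.0574 to 0.124 over 9 Lrig1 GL pairs. Over 3 Lgr5 GL pairs it was -0.0666 to 0.0193. These values cannot show whether such libraries share a mouse or a batch. A fit with the replicate number as a block, over the numbered libraries alone, called 0 members at 9W against 0W in Lrig1 GL cells, as the same libraries did without it, and 0 in the other 3 comparisons between numbered groups.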
